A study of Mus musculus with 121 samples.

Results

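Nuclear-encoded respiratory complex genes are the genes of the cell nucleus for subunits of mitochondrial complexes I to V, with a few factors that assemble them. They were chosen by symbol (starting with Nduf, Uqcr, Cox4i, Cox5, Cox6, Cox7, Cox8 or Atp5, or Sdha to Sdhd) and by a level of at least 1 cpm (counts scaled to library size) in 3 or more of all libraries. Of 92 symbols that matched, 91 passed, out of 24412 genes in the counts table. The symbol that did not pass was Cox8c, a testis form of a small complex IV subunit, with 0 libraries at 1 cpm and a highest level of 0.0762 cpm.

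The study counted RNA reads in prefrontal cortex, striatum and substantia nigra of male mice with a Gdnf allele (cKU) that Cre recombinase switches to a form with raised expression of the endogenous gene. GDNF is a growth factor for midbrain dopamine neurons. Libraries were poly(A)-selected and stranded, with single reads of 75 bases, and total counts ran from 9869584 to 26750905 per library. All mice shared a mixed 129Ola/ICR/C57bl6 background, and the genotypes were wild type (wt/wt), heterozygous (wt/cKU) and homozygous (cKU/cKU).

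In the Nestin-Cre model (strain GDNF cKU x Nestin-Cre) the mice were 2 months old and untreated, and the Nestin promoter drove Cre, which in such lines acts in the developing nervous system from mid-gestation. In the AAV-Cre model (strain GDNF cKU +AAV-Cre) the mice were 5 to 7 months old, and every genotype, wild type included, had received AAV-Cre in the striatum of both sides at 3 to 5 months. The Nestin-Cre model gave 8 wild-type, 6 heterozygous and 4 homozygous libraries of prefrontal cortex, and 6, 7 and 6 of each of the other regions. The AAV-Cre model gave 7, 7 and 8 libraries of prefrontal cortex, 7 of each genotype of striatum, and 7, 7 and 8 of substantia nigra. The 21 Nestin-Cre and 22 AAV-Cre mice mostly gave several regions each, and mouse N_4575 is labelled wild type in prefrontal cortex and homozygous in the other regions. Age, source of Cre, injection and any difference in batch go together with the model and cannot be told apart. Mice are named by model letter and number, as in the sample titles.

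Complex I takes electrons from NADH and complex II takes them from succinate; complex III passes them to cytochrome c, complex IV passes them on to oxygen, and complex V uses the resulting proton gradient to make ATP. Mitochondrial DNA encodes some core subunits of complexes I, III, IV and V, and the nucleus encodes the rest together with the assembly factors. Neurons draw most of their ATP from this chain, and dopamine neurons of the substantia nigra are known for their sensitivity to complex I inhibitors.

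The members comprised 36 subunits of complex I, 4 of complex II, 8 of complex III, 19 of complex IV and 15 of complex V, beside 9 assembly or other factors. Ndufa4, once placed in complex I, and its relative Ndufa4l2 were counted with complex IV. The factors were Ndufaf1 to Ndufaf8, which build complex I, and Atp5s, a coupling factor of complex V. The table held no genes of the mitochondrial genome under the usual mt- symbols. Most members had short transcripts: their annotated lengths ran from 292 to 3632 bases with a median of 754, against 2955 for all genes at 1 cpm in 3 libraries, and 57 of 91 were under 1000 bases.

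Per kilobase of transcript, complex V and complex IV subunits stood highest. The median of the mean level was 209 cpm per kilobase in complex V, 156 in complex IV, 138 in complex III, and 107 in both complex I and complex II, against 15.1 for the factors. Atp5b, the catalytic beta subunit of the ATP synthase (Entrez 11947, chromosome 10, mm10), stood first at 682 cpm per kilobase. Cox4i1, the common form of the regulatory subunit 4 of complex IV, followed at 670. Ndufa4 was at 464, Cox8a at 462, Cox6a1 at 447 and Atp5a1, the alpha subunit of the ATP synthase, at 425. The lowest members were mostly alternative forms of complex IV subunits that other tissues use: Cox8b at 1.16 cpm per kilobase, Cox7b2 at 1.73, Ndufa4l2 at 2.05, Cox4i2 at 2.54, Cox6a2 at 3.73, Cox6b2 at 4.08 and Cox7a1 at 4.78. The exception in this range was Atp5l, a complex V subunit, at 2.61. In all, 8 members had a mean under 5 cpm, 38 had a mean over 100 cpm, and 84 reached 1 cpm in every library.

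The labelled regions carried their defining markers. Summed over 6 genes of cortical excitatory neurons, prefrontal cortex libraries had 1710 to 2368 cpm, against 40.5 to 543 in striatum and 49.5 to 358 in substantia nigra. Summed over 9 genes of striatal projection neurons, striatum had 6534 to 13796 cpm, against 335 to 1910 in prefrontal cortex and 220 to 1758 in substantia nigra. Summed over 7 genes of dopamine neurons, substantia nigra had 1684 to 5834 cpm, against 32.1 to 92.4 in prefrontal cortex and 40.9 to 130 in striatum. The 3 lists did not overlap between their own region and the others in any library.

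Libraries of the Nestin-Cre striatum and substantia nigra stood apart before any comparison. The mean log2 cpm of the 91 members (the member index) ran from 5.79 to 6.50 in Nestin-Cre striatum and from 5.85 to 6.75 in Nestin-Cre substantia nigra. In Nestin-Cre prefrontal cortex it ran from 5.67 to 6.01, and in the AAV-Cre regions from 5.69 to 5.96, 5.84 to 6.06 and 5.75 to 5.99 (prefrontal cortex, striatum, substantia nigra). The spread thus lay in 2 of the 6 sets of libraries, within each genotype. Libraries with a high member index also had more reads on short transcripts of other genes. A length index was taken as the mean log2 cpm of 934 genes under 1000 bases minus that of 4907 genes of 4000 bases or more, without the members and without cytosolic ribosomal proteins. It ran from -2.62 to -2.01 in Nestin-Cre striatum and from -2.61 to -1.72 in Nestin-Cre substantia nigra, but from -2.84 to -2.54 in Nestin-Cre prefrontal cortex and from -2.78 to -2.33 over all AAV-Cre libraries. Ribosomal protein genes, also short, moved alongside: their mean log2 cpm was 6.86 to 7.49 in wild-type Nestin-Cre substantia nigra and 6.37 to 6.59 in the AAV-Cre counterpart. The part of library composition in the differences below was not tested. Counts over all members between regions and between wild-type mice of the models are therefore also given with the length index as a covariate. Counts by complex or by list are given without it. This setting was chosen after the data were seen.

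**Figure D1:**
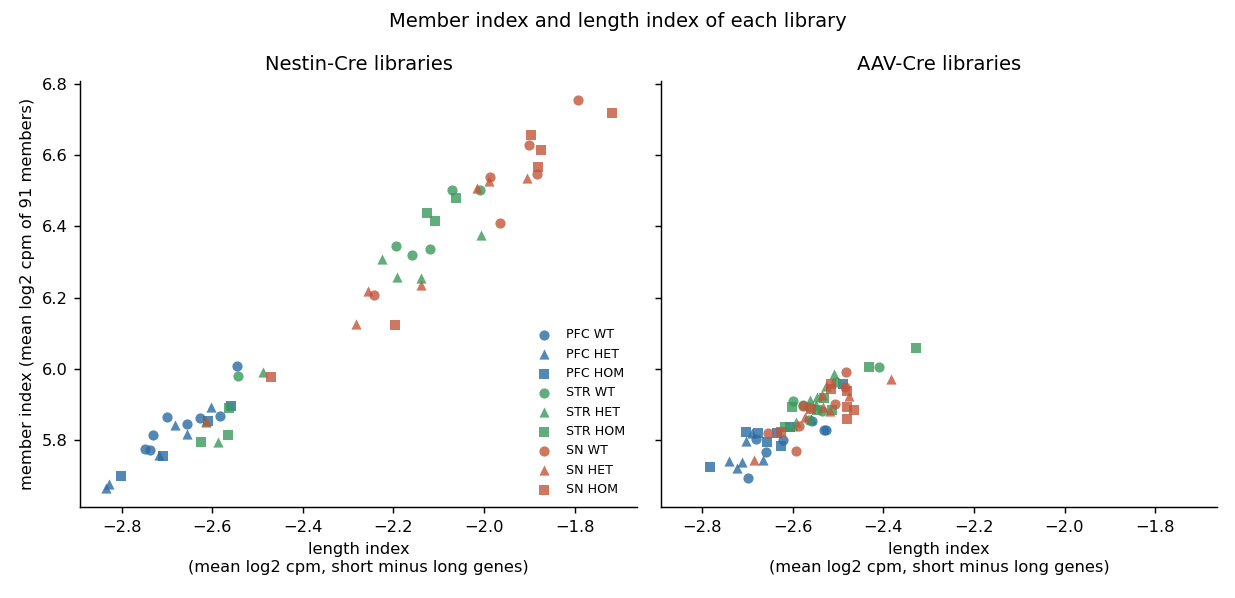
Member index (mean log2 cpm of 91 members, vertical axis) against length index (mean log2 cpm of short minus long genes, horizontal axis), 1 point per library, for Nestin-Cre (left) and AAV-Cre (right), coloured by region with a symbol per genotype. Nestin-Cre striatum spreads from 5.79 to 6.50 and Nestin-Cre substantia nigra from 5.85 to 6.75 on the vertical axis, and the AAV-Cre libraries stay between 5.69 and 6.06.

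Mouse N_4609, a wild-type Nestin-Cre animal, was the clearest single library: its striatum had a member index of 5.98 where the other wild-type striata had 6.32 to 6.50, and a length index of -2.54 where the nearest other had -2.19. Comparisons with Nestin-Cre libraries were therefore repeated without this mouse. Members named below outside the rule for named genes were chosen after their values were seen. Counts of libraries on a side are those of the group named first that lay beyond the mean of the other group, and values are cpm scaled by TMM.

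Wild-type AAV-Cre mice show how the respiratory genes differ between regions without the changed allele. Their striatum had been injected with AAV-Cre, and the other regions had not. Region and injection therefore cannot be told apart in their comparisons with striatum. The members did not move as a block: in each comparison some rose, some fell and others did not pass. From prefrontal cortex to striatum 39 of 90 members rose and 11 fell, where 65.6% of all genes tested passed an adjusted p under 0.1, and the median log2 difference was 0.09 for members and 0.02 for all genes. Substantia nigra against prefrontal cortex gave 39 up and 16 down (74.1% of all genes), with medians of 0.10 and 0.01. Substantia nigra against striatum gave 33 up and 22 down (75.6% of all genes), with medians of 0.04 and 0.03. In each of the 3 comparisons the share of members called was below that of all genes. Scaled by total counts alone, the split was 53 up and 7 down from prefrontal cortex to substantia nigra, and 42 up and 13 down from striatum to substantia nigra. With the length index as a covariate, 30 rose and 24 fell from prefrontal cortex to striatum, 36 and 20 from prefrontal cortex to substantia nigra, and 37 and 22 from striatum to substantia nigra, with 65%, 73.8% and 76.2% of all genes called. Groups did not overlap for 15, 24 and 17 members in the same order (16.7%, 26.7% and 18.9%, against 31.5%, 41% and 45.2% of all genes tested).

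The 3 comparisons share libraries, and in tissue samples a change in the number of cells of a type and a change in RNA per cell cannot be told apart. The 11 oligodendrocyte genes, of which Mbp was the most abundant, rose in all 3: their summed level had a median of 5106 cpm in prefrontal cortex, 10720 in striatum and 17900 in substantia nigra of these mice. None of the 11 was at 0. The part of this cell type in the members' differences was not tested.

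Other marker lists moved as well. Over the steps from prefrontal cortex to striatum, from prefrontal cortex to substantia nigra and from striatum to substantia nigra, 7 neuron genes (most abundant in each list by median in parentheses, here Snap25) gave 0 up and 7 down, 3 and 4, and 6 and 1. Their summed medians were 6467, 3468 and 4844 cpm in prefrontal cortex, striatum and substantia nigra. In the same orders, 5 endothelial genes (Flt1) gave 0 and 4, 0 and 0, and 3 and 0 (163, 125 and 157 cpm), and 8 mural genes (Vtn, in striatum Rgs5) gave 0 and 2, 2 and 2, and 3 and 2 (278, 231 and 252 cpm). The 7 astrocyte genes (Slc1a2) gave 0 and 4, 3 and 2, and 4 and 2 (5324, 4131 and 3881 cpm), and the 6 microglial genes (Csf1r) gave 1 and 0, 0 and 5, and 0 and 6 (370, 384 and 288 cpm). The 6 interneuron genes (Gad1) gave 3 and 1, 4 and 1, and 1 and 4 (1242, 2026 and 1226 cpm), and the 2 of oligodendrocyte precursors (Pdgfra) gave 0 and 0, 1 and 0, and 1 and 0 (123, 108 and 137 cpm). The 6 immediate-early genes (Egr1, in substantia nigra Arc) gave 1 and 0, 0 and 5, and 0 and 5 (454, 423 and 94.9 cpm), and 6 choroid plexus genes (Clic6, in striatum Ttr) 6 and 0, 3 and 1, and 0 and 5 (16.1, 241 and 36.6 cpm). No median of these genes was at 0, and the part of these lists was not tested.

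In complex I, 15 of 36 subunits rose and 5 fell from prefrontal cortex to substantia nigra of AAV-Cre mice (55.6% called, against 74.1% of all genes). Ndufs1, the largest core subunit with iron-sulphur clusters (Entrez 227197), was at 178, 186 and 214 cpm (lowest, median, highest) in substantia nigra and at 127, 138 and 160 cpm in prefrontal cortex, a log2 difference of 0.47 ± 0.05 (SE, n = 7 and 7, adjusted p 3.95e-08, 7 of 7 libraries). Every nigral library was above every cortical one. The 5 that fell were the supernumerary subunits Ndufa3, Ndufa7 and Ndufb9 and the core subunits Ndufs3 and Ndufv1, by 0.08 to 0.24 on the log2 scale. Ndufs3, a core subunit of the arm that carries electrons to ubiquinone, also fell from striatum to substantia nigra in AAV-Cre mice (log2 difference -0.36). Ndufa1, a small membrane subunit, was at 33.7, 40.7 and 42.7 cpm in substantia nigra and at 50.8, 55.4 and 67.7 cpm in striatum, a log2 difference of -0.53 ± 0.08 (adjusted p 2.96e-06, 7 of 7 libraries). These groups did not overlap either. Ndufab1, the mitochondrial acyl carrier protein, was low but rose from 2.33, 3.58 and 4.27 cpm in prefrontal cortex to 4.39, 5.99 and 8.05 cpm in striatum, a log2 difference of 0.75 ± 0.17 (adjusted p 0.000559, 7 of 7 libraries).

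In complex II, the catalytic flavoprotein subunit gave the most even difference. Sdha (Entrez 66945, chr13:74322255-74350240, mm10, minus strand) was at 544, 573 and 604 cpm in AAV-Cre substantia nigra, 410, 432 and 457 cpm in striatum and 393, 420 and 457 cpm in prefrontal cortex. All 7 nigral libraries were above all 14 others. The log2 difference was 0.48 ± 0.04 against prefrontal cortex (adjusted p 3.66e-10) and 0.44 ± 0.04 against striatum (adjusted p 1.21e-09), in 7 of 7 libraries each. Of the other 3 subunits, the membrane anchor Sdhd rose with it (0.26 and 0.11), whereas Sdhb and Sdhc, the iron-sulphur subunit and the other anchor, did not pass against either region.

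In complex III, the Rieske protein Uqcrfs1 and the core proteins Uqcrc1 and Uqcrc2 rose to substantia nigra from both other regions of AAV-Cre mice, as part of 4 of 8 that rose in each (62.5% called against prefrontal cortex and 75% against striatum, where 74.1% and 75.6% of all genes were). Uqcrfs1 was at 108, 115 and 128 cpm in substantia nigra and at 83.7, 91.6 and 99.9 cpm in prefrontal cortex, a log2 difference of 0.36 ± 0.05 (adjusted p 2.11e-06, 7 of 7 libraries, no overlap). Uqcr11, the smallest subunit, went the other way, with 55.2, 58.5 and 69.0 cpm against 58.2, 88.0 and 96.3 cpm and a log2 difference of -0.41 ± 0.09 (adjusted p 0.000221, 7 of 7 libraries). Its ranges overlapped, since the lowest cortical libraries were within the nigral range.

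Complex IV held the widest differences of the AAV-Cre mice, with 6 of 18 subunits up and 5 down from prefrontal cortex to substantia nigra (61.1% called, against 74.1% of all genes). Cox5a, a subunit on the matrix side, was at 114, 145 and 179 cpm in substantia nigra and at 88.9, 93.4 and 105 cpm in prefrontal cortex, a log2 difference of 0.66 ± 0.08 (adjusted p 1.08e-07, 7 of 7 libraries, no overlap). Cox7a1, the form typical of heart and skeletal muscle (Entrez 12865, chr7:30184171-30186030), was at 1.97, 2.35 and 2.98 cpm in substantia nigra, 0.908, 1.11 and 2.01 cpm in prefrontal cortex and 0.748, 1.27 and 1.63 cpm in striatum. Its log2 difference was 0.90 ± 0.21 against prefrontal cortex (adjusted p 0.00066) and 0.97 ± 0.21 against striatum (adjusted p 0.000253), in 7 of 7 libraries each. Substantia nigra lay above all striatal libraries and met 1 cortical library. Cox6a2, another heart and muscle form (Entrez 12862, chr7:128205435-128206366), was at 0.232, 1.26 and 1.85 cpm in substantia nigra, 1.43, 3.33 and 4.36 cpm in prefrontal cortex and 2.52, 3.17 and 4.45 cpm in striatum. It fell by 1.38 ± 0.26 log2 units against prefrontal cortex (adjusted p 7.07e-05) and by 1.35 ± 0.26 against striatum (adjusted p 7.65e-05), in 7 of 7 libraries each. The muscle forms Cox7a1 and Cox6a2 thus moved in opposite directions between the same regions. Cox4i2, the form of subunit 4 known from lung and oxygen-sensing cells, had 0.689, 1.24 and 1.85 cpm in substantia nigra and 1.90, 2.33 and 2.65 cpm in striatum, a log2 difference of -0.84 ± 0.19 (adjusted p 0.00051, 7 of 7 libraries, no overlap). The main forms Cox6a1, Cox6b1 and Cox8a fell from prefrontal cortex to substantia nigra by 0.24, 0.17 and 0.29, and Cox4i1 did not pass (437, 449 and 509 cpm against 435, 441 and 494 cpm, log2 difference 0.06, adjusted p 0.291, 3 of 7 libraries). Cox6b1, which faces the intermembrane space, was the largest fall from prefrontal cortex to striatum, with 143, 147 and 177 cpm against 178, 192 and 203 cpm (log2 difference -0.31 ± 0.05, adjusted p 1.22e-05, 7 of 7 libraries).

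In complex V of AAV-Cre mice, the head subunits Atp5a1 and Atp5b and the central stalk subunit Atp5c1 rose from prefrontal cortex to substantia nigra by 0.27, 0.18 and 0.25, within 6 up and 4 down of 15 (66.7% called, against 74.1% of all genes). The c-ring of the enzyme is encoded by 3 genes for one mature protein, and these diverged. Atp5g3 was at 219, 239 and 257 cpm in substantia nigra and at 157, 166 and 192 cpm in prefrontal cortex, a log2 difference of 0.54 ± 0.04 (adjusted p 2.49e-10, 7 of 7 libraries, no overlap). Atp5g2 was at 9.04, 11.0 and 11.9 cpm and at 12.9, 14.4 and 16.8 cpm, a log2 difference of -0.44 ± 0.09 (adjusted p 0.000105, 7 of 7 libraries, no overlap), and Atp5g1 fell by 0.13. Atp5d, the delta subunit of the central stalk, and Atp5k, a small membrane subunit, fell by 0.25 and 0.30.

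Among the assembly factors of AAV-Cre mice, 6 of 9 rose and Ndufaf3 fell from prefrontal cortex to substantia nigra, and 7 rose and 0 fell to striatum. Called in either direction were 77.8% in each, against 74.1% and 65.6% of all genes. Ndufaf2, which stays with complex I until late in assembly, was at 14.5, 17.7 and 23.6 cpm in substantia nigra and at 10.2, 11.9 and 13.7 cpm in prefrontal cortex, a log2 difference of 0.63 ± 0.09 (adjusted p 1.96e-06, 7 of 7 libraries, no overlap). Atp5s rose most of this group against striatum, from 13.4, 15.2 and 16.5 cpm to 20.6, 21.2 and 22.9 cpm (log2 difference 0.56 ± 0.08, adjusted p 1.54e-06, 7 of 7 libraries, no overlap). Ndufaf8 had the largest rise of the factors from prefrontal cortex to striatum, 4.69, 7.09 and 10.1 cpm against 7.70, 11.7 and 15.1 cpm (log2 difference 0.64 ± 0.18, adjusted p 0.00452, 7 of 7 libraries).

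Of the 20 core subunits listed for naming, 13 rose and 2 fell from prefrontal cortex to substantia nigra in AAV-Cre mice, 13 rose and 1 fell from striatum to substantia nigra, and 9 rose and 2 fell from prefrontal cortex to striatum, where 74.1%, 75.6% and 65.6% of all genes tested were called in either direction. The alternative forms gave 4 up and 7 down, 3 up and 6 down, and 4 up and 3 down over the same comparisons. The genes that fell among the core subunits were Ndufs3 and Ndufv1 against prefrontal cortex, Ndufs3 against striatum, and Ndufv1 and Sdhb from prefrontal cortex to striatum.

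In wild-type Nestin-Cre mice almost all members were higher in striatum and substantia nigra than in prefrontal cortex. From prefrontal cortex to striatum 78 of 90 rose and 1 fell (68.1% of all genes tested were called), with a median log2 difference of 0.49, against 0.00 for all genes. To substantia nigra 81 rose and 2 fell (78.8% of all genes), with medians of 0.74 and -0.03. From striatum to substantia nigra 48 rose and 9 fell (76.2% of all genes), with medians of 0.26 and 0.01. Groups did not overlap for 25, 65 and 13 members (27.8%, 72.2% and 14.4%, against 33.3%, 47.6% and 45.4% of all genes). Scaled by total counts alone, the median of all genes moved to 0.15 from prefrontal cortex to substantia nigra and to 0.16 from striatum to substantia nigra, and the latter split became 68 up and 5 down. Without mouse N_4609 the counts were 82 up and 0 down, 84 and 1, and 48 and 9.

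Transcript length and library composition are set beside the region differences of Nestin-Cre mice here, and their part was not tested. From striatum to substantia nigra, members under 1000 bases had a median of 0.255 and those of 2000 bases or more had 0.30. Other genes under 1000 bases had 0.15 there, and those of 2000 to under 4000 bases had 0.01. In the nigral comparison with prefrontal cortex, other genes under 1000 bases had a median log2 difference of 0.55. Other genes of 1000 to under 2000 bases had 0.21, those of 2000 to under 4000 bases had -0.06, and longer ones had -0.29. The members under 1000 bases had a median of 0.83, with 51 of 56 up and 2 down. Members of 1000 to under 2000 bases had 0.55, and the 8 members of 2000 bases or more had 0.51, with 7 up. No member reached 4000 bases. In the striatal comparison, other genes had 0.40, 0.16, -0.01 and -0.16 in the same order of length. The members had 0.57, 0.28 and 0.23. Ribosomal proteins rose in 73 of 75 cases in each of these comparisons, with medians of 0.90 and 0.70. With the length index as a covariate, 2 members rose and 8 fell from prefrontal cortex to substantia nigra, 9 rose and 14 fell from prefrontal cortex to striatum, and 22 rose and 24 fell from striatum to substantia nigra. Of the 83, 79 and 57 members called without it, 45, 45 and 5 had the other sign with it, of which 4, 9 and 0 were called. In the same fits 40.2%, 38.6% and 72.3% of all genes were called. The index itself differed between the regions, from -2.75 to -2.54 in wild-type prefrontal cortex to -2.54 to -2.01 in striatum and -2.24 to -1.79 in substantia nigra. Neither range overlapped with that of prefrontal cortex, so that in these mice region and index cannot be told apart in either comparison with it. Striatum and substantia nigra overlapped only through mouse N_4609. The 11 oligodendrocyte genes also rose in all 3 comparisons (summed medians 5574, 8779 and 28793 cpm, Mbp the most abundant, none at 0), and their part was not tested.

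Other marker lists moved in Nestin-Cre mice too. Summed medians follow the order prefrontal cortex, striatum, substantia nigra. Of 7 neuron genes, 6 fell from prefrontal cortex to striatum, 2 rose and 4 fell to substantia nigra, and 3 rose and 3 fell from striatum to substantia nigra (7572, 4225 and 4714 cpm). In the same order, 5 endothelial genes gave 0 up and 5 down, 0 and 3, and 3 and 0 (116, 56.6 and 88.4 cpm), and 8 mural genes gave 0 and 3, 4 and 1, and 7 and 0 (255, 211 and 318 cpm). The 7 astrocyte genes gave 0 and 4, 5 and 2, and 5 and 2 (4684, 3837 and 4568.1 cpm), and the 6 microglial genes gave 5 and 0, 3 and 0, and 0 and 2 (307, 365 and 328 cpm). The 6 interneuron genes gave 4 and 1, 3 and 2, and 2 and 4 (1255, 2012 and 1453 cpm), and the 2 of oligodendrocyte precursors gave 0 and 2, 1 and 1, and 1 and 0 (103, 83.8 and 114 cpm). The 6 immediate-early genes gave 1 and 1, 0 and 6, and 0 and 5 (517, 483 and 79.0 cpm), and 6 choroid plexus genes 4 and 1, 5 and 1, and 1 and 1 (11.4, 111 and 30.4 cpm). The most abundant gene of each list was that of AAV-Cre mice, except Rgs5 for mural cells and Kl for choroid plexus in prefrontal cortex, Cldn5 for endothelium in striatum and Ttr for choroid plexus in substantia nigra. No median of these genes was at 0, and the part of these lists was not tested.

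By complex, 34 of 36 complex I subunits, 3 of 4 of complex II, 7 of 8 of complex III, 15 of 18 tested of complex IV, 14 of 15 of complex V and 8 of 9 factors rose from prefrontal cortex to substantia nigra of Nestin-Cre mice. Called in either direction were 94.4%, 75%, 87.5%, 88.9%, 100% and 88.9%, against 78.8% of all genes. The medians were 0.74, 0.35, 0.70, 0.83, 0.76 and 0.52 in that order. To striatum the medians were 0.52, 0.19, 0.48, 0.55, 0.38 and 0.38. Complex II, whose 4 subunits have the longest typical transcripts of the 5 complexes, had the smallest median in both.

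**Figure D2:**
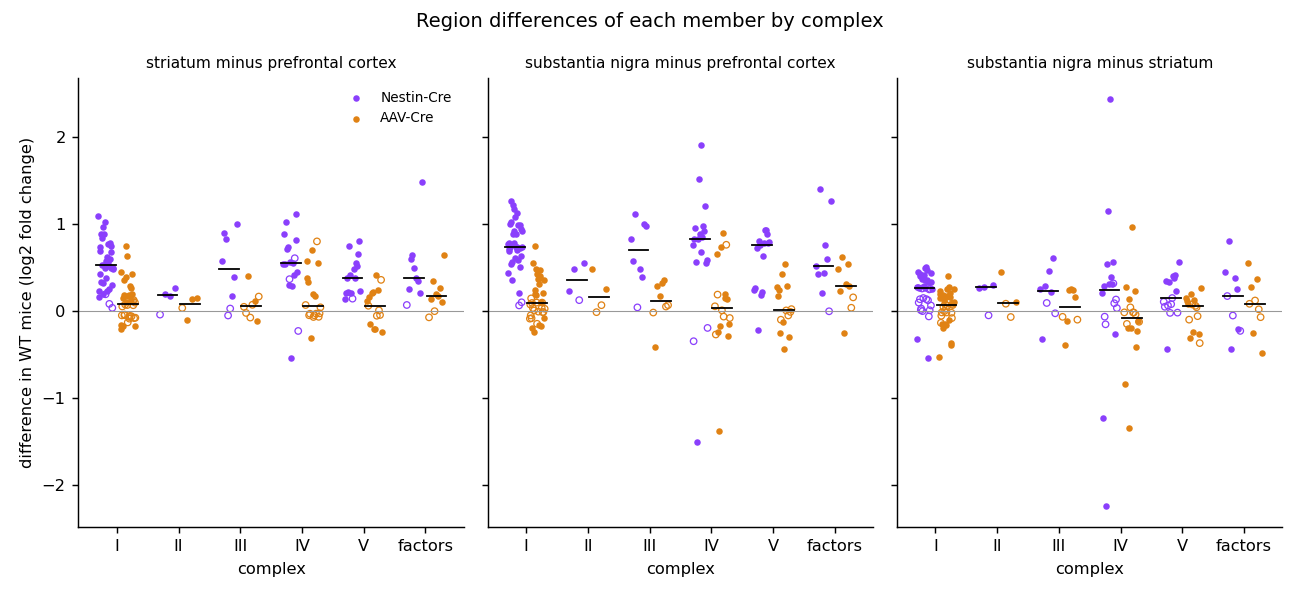
Region differences of each member in wild-type mice (log2 fold change, vertical axis) by complex (I to V and factors, horizontal axis), with a panel per pair of regions, 1 point per member, filled where called, and a black line at the median. Nestin-Cre medians from prefrontal cortex to substantia nigra lie between 0.35 and 0.83, and AAV-Cre medians between 0.01 and 0.29.

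The abundant subunits show the Nestin-Cre pattern library by library. Cox4i1 was at 398, 448 and 471 cpm in prefrontal cortex, 473, 661 and 761 cpm in striatum and 609, 766 and 887 cpm in substantia nigra, with log2 differences from prefrontal cortex of 0.55 ± 0.09 (adjusted p 1.97e-05, 6 of 6 libraries) and 0.76 ± 0.09 (adjusted p 1.32e-07, 6 of 6 libraries). Neither overlapped with prefrontal cortex, and with the covariate the differences were -0.03 and -0.07. Ndufs1 was at 242, 252 and 298 cpm in substantia nigra and at 150, 175 and 194 cpm in prefrontal cortex (log2 difference 0.59 ± 0.07, adjusted p 2.46e-07, 6 of 6 libraries, no overlap), with 0.30 under the covariate (adjusted p 0.18). Sdha, one of the longest members at 2859 bases, was at 500, 577 and 604 cpm in substantia nigra, 417, 469 and 510 cpm in striatum and 427, 484 and 506 cpm in prefrontal cortex. It rose to substantia nigra by 0.23 ± 0.06 (adjusted p 0.00196, 6 of 6 libraries) and did not pass in striatum (-0.04, adjusted p 0.575, 3 of 6 libraries below). The nigral and cortical ranges of Sdha met at their ends.

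The largest differences in Nestin-Cre mice were in scarce forms, small subunits and the factors Ndufaf2 and Ndufaf8. Cox7a1 was at 3.19, 4.10 and 5.80 cpm in substantia nigra, 0.555, 0.747 and 1.09 cpm in striatum and 0.686, 1.20 and 1.61 cpm in prefrontal cortex, with every nigral library above all others. Its log2 differences were 1.91 ± 0.21 against prefrontal cortex (adjusted p 4.06e-08) and 2.44 ± 0.24 against striatum (adjusted p 7.55e-09), in 6 of 6 libraries each; with the covariate they were 1.08 (adjusted p 0.125) and 2.19 (adjusted p 4.67e-07). Cox7a1 was also the only member that fell from prefrontal cortex to striatum, by 0.54 ± 0.24 (adjusted p 0.0536, 6 of 6 libraries), a call lost without mouse N_4609 (-0.40, adjusted p 0.185). Cox6a2 was at 0.274, 0.958 and 1.30 cpm in substantia nigra, 2.06, 4.15 and 7.62 cpm in striatum and 1.25, 2.36 and 5.09 cpm in prefrontal cortex. It fell, with a log2 difference of -2.25 ± 0.37 against striatum (adjusted p 1.45e-05) and with a log2 difference of -1.50 ± 0.36 against prefrontal cortex (adjusted p 0.000736), in 6 of 6 libraries each, and under the covariate its differences were -2.45 and -2.21. The nigral libraries lay below all striatal ones and met the lowest cortical one. Cox4i2 was lower in substantia nigra than in striatum, at 1.00, 1.36 and 1.55 cpm against 2.19, 2.89 and 4.69 cpm (log2 difference -1.23 ± 0.24, adjusted p 0.000106, 6 of 6 libraries, no overlap).

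Cox6b2, a form of subunit 6b typical of testis, was at 2.44, 3.72 and 6.55 cpm in Nestin-Cre substantia nigra against 0.90, 1.41 and 1.71 cpm in prefrontal cortex (log2 difference 1.52 ± 0.21, adjusted p 1.22e-06, 6 of 6 libraries, no overlap), a call lost with the covariate (0.93, adjusted p 0.184). Ndufaf2 rose over the same pair by 1.41 ± 0.13 (25.6, 34.2 and 48.2 cpm against 10.8, 12.5 and 15.7 cpm, adjusted p 4.16e-09, 6 of 6 libraries, no overlap), and the covariate left 0.49 (adjusted p 0.149). Ndufs3 ran against the other core subunits here too: it was at 57.1, 65.5 and 73.1 cpm in substantia nigra and at 75.3, 96.9 and 108 cpm in striatum (log2 difference -0.54 ± 0.08, adjusted p 3.8e-06, 6 of 6 libraries, no overlap), and at -0.68 with the covariate (adjusted p 1.2e-07). From prefrontal cortex to striatum the largest rises were Ndufaf8 (1.49 ± 0.16), Cox7c, a small complex IV subunit (1.12 ± 0.12), and Ndufa1 (1.09 ± 0.10), each in 6 of 6 libraries with no overlap and adjusted p of 5.55e-08, 2.82e-08 and 3.29e-09. Atp5d was the other member that fell from prefrontal cortex to substantia nigra, by 0.22 ± 0.09 (134, 144 and 164 cpm against 139, 174 and 193 cpm, adjusted p 0.026, 6 of 6 libraries). That call was lost without mouse N_4609 (-0.12) and with total counts (-0.03).

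Set side by side, the region differences of both models overlapped in part. From prefrontal cortex to striatum, 38 members rose in both models, which is 97.4% of those that rose in AAV-Cre and 48.7% of those that rose in Nestin-Cre mice (71.2% and 69.9% over all genes tested in both), and 9 rose in Nestin-Cre but fell in AAV-Cre mice (Atp5d, Atp5g1, Atp5o, Cox6b1, Ndufa10, Ndufa11, Ndufa3, Sdhb and Uqcrh). To substantia nigra from prefrontal cortex, 38 rose in both (97.4% and 46.9%, over all genes 74% and 74.5%), Atp5d and Cox6a2 fell in both, and 12 rose in Nestin-Cre but fell in AAV-Cre mice (Atp5g1, Atp5g2, Atp5k, Cox6a1, Cox6b1, Cox8a, Ndufa3, Ndufa4, Ndufa7, Ndufaf3, Ndufb9 and Uqcr11). From striatum to substantia nigra, 27 rose in both (81.8% and 56.2%, over all genes 77.5% and 82.2%), 7 fell in both (Cox4i2, Cox6a2, Cox8a, Ndufa1, Ndufaf3, Ndufs3 and Uqcr11), and Atp5k, Cox6c and Uqcrb rose in Nestin-Cre but fell in AAV-Cre mice. No member fell in Nestin-Cre and rose in AAV-Cre mice in any of the 3. Almost all members rose from prefrontal cortex in Nestin-Cre mice. In the comparisons with prefrontal cortex, the high shares of AAV-Cre rises and the lack of such members were therefore largely set in advance. Of 14779 genes tested in both models, 166, 236 and 95 rose in Nestin-Cre but fell in AAV-Cre mice, in the same order of comparisons. The reverse held for 224, 430 and 170 genes, and 3658, 4494 and 4531 fell in both.

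The difference between the models was tested directly. The step from prefrontal cortex to striatum was smaller in AAV-Cre than in Nestin-Cre mice for 59 of 90 members and larger for 0, where 29.4% of all genes tested differed. For the step from prefrontal cortex to substantia nigra 70 were smaller and 1 larger (45% of all genes), and for that from striatum to substantia nigra 37 and 1 (34% of all genes). The medians were -0.39, -0.71 and -0.25 for members, and 0.00, 0.03 and 0.03 for all genes. With total counts alone the third split was 52 smaller and 0 larger, and with mouse as a replicate block the 3 splits were 57 and 0, 71 and 1, and 51 and 1. Without mouse N_4609 they were 65 and 0, 74 and 1, and 43 and 2. With the length index as a covariate 0 were called smaller and 1 larger in each of the comparisons with prefrontal cortex, Atp5g3 both times, which did not pass without it (-0.07, adjusted p 0.66, and -0.14, adjusted p 0.301). In the third 2 were smaller and 5 larger, of which 3 had been called in the same direction without the covariate (Cox7a1, Cox6b2 and Atp5d). Of all genes, 2.41%, 0.777% and 25.8% were called in these fits.

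For the steps from prefrontal cortex, the largest differences between models were in small subunits and the factor Ndufaf8. Atp5k rose from 61.2, 67.9 and 80.0 cpm in prefrontal cortex to 85.3, 133 and 153 cpm in substantia nigra of Nestin-Cre mice (log2 difference 0.89), but was at 64.3, 72.7 and 87.3 cpm and 49.5, 59.6 and 66.7 cpm in AAV-Cre mice (log2 difference -0.30). The difference between models was -1.24 ± 0.13 (adjusted p 1.46e-08), and -0.29 with the covariate (adjusted p 0.331). For the same pair of regions the next were Ndufaf8 (-1.15 ± 0.25, adjusted p 0.000429) and Cox7c (-1.11 ± 0.14, adjusted p 1.2e-07), which the covariate moved to 0.06 and -0.24. For striatum they were Uqcr11 (-0.92 ± 0.15, adjusted p 5.31e-05), Cox8a (-0.88 ± 0.18, adjusted p 0.000497) and Ndufaf8 (-0.85 ± 0.25, adjusted p 0.0129), with -0.36, -0.19 and -0.09 under the covariate and none of the 3 called there.

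Sdha was the member whose step from prefrontal cortex to substantia nigra was larger in AAV-Cre mice, by 0.21 ± 0.07 (adjusted p 0.0149, with 7 of 7 and 6 of 6 nigral libraries above the cortical mean). The nigral levels were alike in both models, and the cortical ones were lower in AAV-Cre mice. The likelihood ratio test did not call it (adjusted p 0.248), nor did the fit with the covariate (adjusted p 0.419). From striatum to substantia nigra Cox7a1 rose more in Nestin-Cre mice (difference between models -1.52 ± 0.31, adjusted p 0.000612), and it kept its call with the covariate (-1.16, adjusted p 0.0122), as did Cox6b2 (-1.15 ± 0.29, adjusted p 0.00373, then -0.92 with adjusted p 0.0426). Ndufaf2 differed by -0.57 ± 0.17 (adjusted p 0.0133) and lost its call with the covariate (-0.27, adjusted p 0.245). Atp5d differed the other way, by 0.30 ± 0.12 (adjusted p 0.0641): it fell from striatum to substantia nigra by 0.44 in Nestin-Cre mice and did not pass in AAV-Cre mice (-0.10). This call held with the covariate (0.51, adjusted p 0.00137) and was lost with total counts (0.23, adjusted p 0.174). The others of the 5 larger ones under the covariate were Cox8a, Ndufaf3, Ndufs3 and Uqcrc1, by 0.20 to 0.39.

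Between wild-type mice of the models, the members were almost all lower in AAV-Cre mice in striatum and substantia nigra, and in prefrontal cortex 41 of 90 were called with a small median. In prefrontal cortex 8 of 90 members were higher and 33 lower in AAV-Cre mice (48.1% of all genes tested were called), with a median log2 difference of -0.06, against 0.01 for all genes. In striatum 3 of 91 were higher and 81 lower (60.6% of all genes), with medians of -0.47 and 0.02. In substantia nigra 0 of 91 were higher and 84 lower (60.5% of all genes), with medians of -0.75 and -0.01. Groups did not overlap for 6, 24 and 69 members (6.67%, 26.4% and 75.8%, against 6.33%, 21.6% and 27.2% of all genes). With total counts alone the cortical split was 12 higher and 28 lower. Without mouse N_4609 the splits were 7 and 32, 3 and 81, and 0 and 83. With the length index as a covariate the splits were 5 and 39 in prefrontal cortex, 2 and 9 in striatum, and 0 and 0 in substantia nigra, where the quasi-likelihood fit left 0 members at an unadjusted p under 0.05 and called 16 genes higher and 23 lower among all genes. The shares of all genes called in these fits were 47.2%, 30.9% and 0.258%. In substantia nigra the index ran from -2.65 to -2.48 in wild-type AAV-Cre and from -2.24 to -1.79 in Nestin-Cre mice, with no overlap, so that model and index cannot be told apart there. In striatum the ranges (-2.60 to -2.41 and -2.54 to -2.01) overlapped only through mouse N_4609.

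Values by transcript length and for other gene lists in the comparisons between models were these. Other genes under 1000 bases had a median of -0.55 in substantia nigra and -0.29 in striatum, and other genes of 4000 bases or more had 0.22 and 0.18. Between these, other genes of 1000 to under 2000 bases had -0.26 and -0.16, and those of 2000 to under 4000 bases had -0.01 and 0.01. The 57 members under 1000 bases had a median of -0.87 in substantia nigra with 51 lower. Members of 1000 to under 2000 bases had -0.62 there, and the 8 of 2000 bases or more had -0.47 with 7 lower. In striatum the members had -0.50, -0.42 and -0.26 in the same order of length. Ribosomal proteins were lower in 74 of 75 cases in substantia nigra and 71 of 75 in striatum. Of 11 oligodendrocyte genes 11 were lower in substantia nigra (median -0.98) and 0 in striatum, where 5 were higher. In prefrontal cortex, where the length index of the models overlapped, other genes under 1000 bases had a median of 0.06 and ribosomal proteins were higher in 38 of 75 cases and lower in 3. Over prefrontal cortex, striatum and substantia nigra the endothelial genes were higher in 4, 5 and 5 of 5 cases, and the neuron genes lower in 4, 4 and 2 of 7 and higher in 0, 0 and 3. The microglial genes were higher in 6, 0 and 0 of 6 and lower in 0, 1 and 3, and the mural genes were higher in 3, 2 and 0 of 8 and lower in 0, 0 and 5. The astrocyte genes were higher in 3, 2 and 0 of 7 and lower in 1, 1 and 4, the interneuron genes higher in 1, 2 and 1 of 6 and lower in 0, 1 and 2, and the precursor genes higher in 2, 2 and 1 of 2. The immediate-early genes were higher in 0, 0 and 2 of 6 and lower in 1, 1 and 0, and the choroid plexus genes higher in 1, 6 and 0. Of the called members in striatum and substantia nigra (84 in each), 17 and 26 had the other sign with the covariate and were not called there. The part of these measures was not tested.

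In prefrontal cortex 13 of the 20 listed core subunits were lower, out of 33 lower members, and 1, Cox5b, was higher, where 48.1% of all genes were called. Over all genotypes, the summed genes of striatal projection neurons ran from 746 to 1910 cpm in AAV-Cre prefrontal cortex (median 1016). In Nestin-Cre prefrontal cortex they ran from 335 to 1110 cpm (median 551), and their part was not tested. Atp5f1, the b subunit of the peripheral stalk, was at 145, 167 and 174 cpm in AAV-Cre and at 206, 213 and 244 cpm in Nestin-Cre mice, a log2 difference of -0.40 ± 0.05 (adjusted p 9.74e-07, 7 of 7 libraries). Cox5a was at 88.9, 93.4 and 105 cpm and at 115, 123 and 147 cpm, also -0.40 ± 0.07 (adjusted p 2.73e-05, 7 of 7 libraries). Neither gene overlapped between the models. The higher members included Cox5b, which binds zinc on the matrix side (85.8, 95.8 and 129 cpm against 76.1, 79.6 and 88.8 cpm, 0.34 ± 0.09, adjusted p 0.00351, 7 of 7 libraries), and Cox6a1 (195, 233 and 293 cpm against 165, 197 and 216 cpm, 0.34 ± 0.09, adjusted p 0.00395, 7 of 7 libraries). Both of these overlapped. Cox6b2 was higher by 0.52 ± 0.17 (adjusted p 0.012, 7 of 7 libraries) and Cox7b2, a form of subunit 7b near the lower limit of detection, was lower by 1.24 ± 0.42 on the log2 scale (0.115, 0.278 and 0.777 cpm against 0.286, 0.810 and 1.38 cpm, adjusted p 0.017, 7 of 7 libraries).

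In striatum 18 of 20 core subunits were lower in AAV-Cre mice, and in substantia nigra 19 of 20, where 60.6% and 60.5% of all genes were called. Of all members 11 were called in striatum and 0 in substantia nigra with the length index as a covariate. Ndufaf4, an early assembly factor of complex I, was at 31.6, 34.4 and 37.7 cpm in AAV-Cre and at 47.5, 55.9 and 63.6 cpm in Nestin-Cre striatum, a log2 difference of -0.66 ± 0.07 (adjusted p 9.94e-09, 7 of 7 libraries, no overlap). Ndufa1 was at 50.8, 55.4 and 67.7 cpm and at 71.3, 94.0 and 108 cpm there (-0.68 ± 0.14, adjusted p 0.000244, 7 of 7 libraries, no overlap), and at -0.14 with the covariate (adjusted p 0.159). The 3 members higher in AAV-Cre striatum were the scarce forms Cox6b2 (0.85 ± 0.32, adjusted p 0.0237, 7 of 7 libraries), Cox7a1 (0.66 ± 0.27, adjusted p 0.0417, 6 of 7 libraries) and Ndufa4l2 (0.45 ± 0.19, adjusted p 0.0413, 7 of 7 libraries). In the same comparison 6 of 6 choroid plexus genes were higher (summed medians 241 and 111 cpm, Ttr the most abundant, no median at 0), and their part was not tested. In substantia nigra Cox6c, a small complex IV subunit, was at 93.2, 111 and 132 cpm in AAV-Cre and at 167, 261 and 340 cpm in Nestin-Cre mice (-1.24 ± 0.17, adjusted p 9.32e-07, 7 of 7 libraries). Cox7c was at 44.8, 47.3 and 49.7 cpm and at 70.4, 100 and 139 cpm (-1.19 ± 0.17, adjusted p 1.19e-06, 7 of 7 libraries). Neither overlapped, and with the covariate they were at -0.15 and -0.10 with no call. Cox7b2 was lower, with log2 differences of -1.50 ± 0.44 in substantia nigra (adjusted p 0.00402) and -1.04 ± 0.40 in striatum (adjusted p 0.0259), in 7 of 7 libraries each, and both calls were lost with the covariate.

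The 7 members not called in substantia nigra were Atp5d, Cox4i2, Cox6a2, Cox6b2, Cox8b, Ndufa4l2 and Sdha. Of these Sdha and Atp5d are abundant. Sdha was at 544, 573 and 604 cpm in AAV-Cre and at 500, 577 and 604 cpm in Nestin-Cre mice (log2 difference 0.00 to 2 decimals, adjusted p 0.985), and Atp5d was at 126, 147 and 162 cpm and at 134, 144 and 164 cpm (-0.06 ± 0.08, adjusted p 0.515, 3 of 7 libraries below). Their ranges lay almost on top of each other.

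The genotype comparisons ask whether raised GDNF changes the respiratory genes. No member was called for either genotype in any region of either model by the quasi-likelihood test of edgeR. Gdnf itself was at 5.49, 6.82 and 7.51 cpm in wild-type and at 7.71, 8.66 and 10.1 cpm in homozygous AAV-Cre striatum, and at 3.95, 6.24 and 7.75 cpm and 5.74, 6.93 and 9.89 cpm in Nestin-Cre striatum. In AAV-Cre striatum those groups did not overlap, and in Nestin-Cre striatum they did.

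In Nestin-Cre prefrontal cortex 0 of 90 members were called in heterozygous mice (0% of all genes tested) and 0 in homozygous mice (0.25% of all genes), with 13 and 1 at an unadjusted p under 0.05, and DESeq2 and the likelihood ratio test of edgeR also called 0 in each. The medians were -0.08 and -0.04. Ndufb8, a supernumerary subunit of complex I, had the smallest p in heterozygous mice, at 122, 127 and 137 cpm against 128, 147 and 153 cpm in wild type (log2 difference -0.16 ± 0.05, adjusted p 0.308, 6 of 6 libraries lower). These ranges overlapped, and 1 member, Ndufaf4, had ranges that did not (33.5, 34.2 and 36.2 cpm against 36.5, 38.6 and 43.1 cpm, adjusted p 0.311, log2 difference -0.17, 6 of 6 libraries), as for 0.202% of all genes. Atp5b had the smallest p in homozygous mice, which were at 1214, 1185, 1163 and 1117 cpm against 1213, 1254 and 1385 cpm in wild type (-0.11 ± 0.04, adjusted p 0.34, 4 of 4 libraries lower). The highest homozygous library just reached the lowest wild-type one.

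In Nestin-Cre striatum 0 of 90 members were called in heterozygous and 0 in homozygous mice (0% of all genes in each), with 9 and 0 at an unadjusted p under 0.05 and 0 by DESeq2 in each. The medians were -0.22 and -0.18, against 0.01 for all genes in each, and -0.07 and -0.03 with the length index as a covariate. The likelihood ratio test called 7 lower in heterozygous mice (8.57% of all genes), which were Atp5j2, Cox5a, Cox6c, Ndufa1, Ndufb9, Ndufs5 and Uqcr10, by 0.33 to 0.46 on the log2 scale. In homozygous mice it called Ndufs5 lower (1.91% of all genes). Ndufs3 had the smallest p in heterozygous mice, with 65.0, 76.7 and 92.3 cpm against 75.3, 96.9 and 108 cpm in wild type (-0.31 ± 0.12, adjusted p 0.227, 7 of 7 libraries lower). In homozygous mice it was Cox6a2, with 2.12, 2.99 and 4.33 cpm against 2.06, 4.15 and 7.62 cpm (-0.49 ± 0.26, adjusted p 0.784, 6 of 6 libraries lower). Both sets of ranges overlapped. Without mouse N_4609, whose index was the lowest of the wild type, the medians were -0.29 and -0.26, with 28 and 6 at an unadjusted p under 0.05 and still 0 called by the quasi-likelihood test.

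In Nestin-Cre substantia nigra 0 of 90 members were called in either genotype (0% of all genes in each), with 6 heterozygous and 0 homozygous differences at an unadjusted p under 0.05 and 0 by DESeq2. The medians were -0.25 in heterozygous and -0.07 in homozygous mice, and 0.00 and -0.03 with the covariate. Without mouse N_4609 they were -0.32 and -0.14, with 31 and 0 at an unadjusted p under 0.05 and 0 called by the quasi-likelihood test. The likelihood ratio test called 1 member lower in heterozygous mice (2.23% of all genes), Atp5j2, a subunit of the membrane part of complex V. Atp5g1 had the smallest p in heterozygous mice, at 56.5, 68.6 and 79.2 cpm against 72.3, 79.1 and 94.7 cpm in wild type (-0.25 ± 0.10, adjusted p 0.518, 7 of 7 libraries lower). Cox4i2 had it in homozygous mice, at 1.28, 1.62 and 1.93 cpm against 1.00, 1.36 and 1.55 cpm (0.33 ± 0.19, adjusted p 0.892, 5 of 6 libraries higher). In each case the groups overlapped.

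The length index of the Nestin-Cre genotypes overlapped, and it reached lower in heterozygous and homozygous mice than in the wild type. In striatum it was -2.54 to -2.01 in wild-type mice (from -2.19 without mouse N_4609), -2.62 to -2.01 in heterozygous and -2.62 to -2.06 in homozygous mice, and the member index was 5.98 to 6.50, 5.79 to 6.38 and 5.79 to 6.48. In substantia nigra the length index was -2.24 to -1.79, -2.61 to -1.90 and -2.47 to -1.72, and the member index was 6.21 to 6.75, 5.85 to 6.54 and 5.98 to 6.72. The lowest libraries of both regions included heterozygous and homozygous mice and wild-type mouse N_4609.

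In AAV-Cre mice the medians of the 6 genotype comparisons lay within 0.03 of 0. In prefrontal cortex 0 of 90 members were called in heterozygous (0% of all genes) and 0 in homozygous mice (0.0137% of all genes), with 11 and 10 at an unadjusted p under 0.05. DESeq2 called 0 in heterozygous mice and 6 higher in homozygous mice (1.26% of all genes): Atp5a1, Atp5f1, Atp5g3, Cox5a, Ndufs1 and Uqcrc2, by 0.12 to 0.21 on the log2 scale. The likelihood ratio test called 0 in heterozygous mice and 1 in homozygous mice (2.93% of all genes), Cox7b2. Cox5a had the smallest p in heterozygous mice, at 95.8, 102 and 124 cpm against 88.9, 93.4 and 105 cpm in wild type (0.19 ± 0.07, adjusted p 0.34, 7 of 7 libraries higher). Cox7b2 had it in homozygous mice, at 0.312, 0.83 and 1.69 cpm against 0.115, 0.278 and 0.777 cpm (1.37 ± 0.43, adjusted p 0.216, 7 of 8 libraries higher). Both overlapped, and a level under 1 cpm rests on few reads.

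In AAV-Cre striatum, the injected region, 0 of 91 members were called in either genotype (0% of all genes in each), with 1 at an unadjusted p under 0.05 in each and 0 by DESeq2 or the likelihood ratio test. The smallest p belonged to Ndufaf5 in heterozygous mice, at 32.9, 35.4 and 39.0 cpm against 29.8, 32.2 and 38.2 cpm (0.12 ± 0.05, adjusted p 1, 6 of 7 libraries higher), and to Ndufaf6 in homozygous mice, at 6.88, 7.42 and 8.38 cpm against 6.32, 7.02 and 7.28 cpm (0.13 ± 0.06, adjusted p 1, 7 of 7 libraries higher). In AAV-Cre substantia nigra 0 of 90 were called in either genotype (0% of all genes in each), with 1 heterozygous and 3 homozygous differences at an unadjusted p under 0.05 and 0 by either other tool. Cox6c had the smallest p in both genotypes, at 114, 130 and 134 cpm in heterozygous, 115, 128 and 146 cpm in homozygous and 93.2, 111 and 132 cpm in wild-type mice (0.16 ± 0.07 and 0.18 ± 0.06, adjusted p 0.946 and 0.574, 6 of 7 and 8 of 8 libraries higher). All of these ranges overlapped.

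Whether a genotype effect differed between the models was tested directly, and in prefrontal cortex the counts called were small for members and for all genes. For heterozygous mice 2 of 90 were called, both with a higher effect in AAV-Cre mice (0.678% of all genes), and for homozygous mice 3 of 90, or 3.33% (3.54% of all genes). Uqcrfs1 was at 91.7, 101 and 107 cpm in heterozygous AAV-Cre against 83.7, 91.6 and 99.9 cpm in wild-type mice, and at 96.8, 107 and 113 cpm against 110, 118 and 127 cpm in Nestin-Cre mice. The effects differed by 0.28 ± 0.07 (adjusted p 0.0843, 6 of 7 libraries higher and 6 of 6 lower). Cox5a followed the same course, higher in 7 of 7 and lower in 5 of 6 libraries, with 94.7, 108 and 129 cpm in heterozygous Nestin-Cre mice, and differed by 0.39 ± 0.10 (adjusted p 0.0843). Neither gene was called within a model. The quasi-likelihood test lost both calls without mouse N_4609, with total counts and without the filter on low counts.

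For homozygous mice the 3 members were Atp5b (0.20 ± 0.05, adjusted p 0.053), Atp5a1 (0.21 ± 0.06, adjusted p 0.0638) and Cox7b2 (2.02 ± 0.64, adjusted p 0.0977). Atp5a1 was at 979, 984, 917 and 973 cpm in the 4 homozygous Nestin-Cre mice against 974, 1032 and 1090 cpm in wild type (4 of 4 lower), and at 895, 979 and 1012 cpm against 819, 878 and 976 cpm in AAV-Cre mice (8 of 8 higher). Atp5b in AAV-Cre mice was at 1115, 1206 and 1273 cpm against 1042, 1134 and 1222 cpm (7 of 8 higher). Cox7b2 was at 0.374, 0.132, 0.511 and 1.08 cpm in the 4 homozygous Nestin-Cre mice (3 of 4 lower). With 4 mice in that group, 0 members were called without mouse N_4568 or without mouse N_4569, 2 without mouse N_4580 (Atp5a1 and Cox7b2) and 3 without mouse N_4393 (Atp5a1, Atp5b and Uqcrfs1). The wild-type group includes mouse N_4575, labelled homozygous in its other regions, and without it 2 were called (Atp5a1 and Atp5b). The differences of Atp5b and Atp5a1 lay between 0.17 and 0.22 in these 4 fits. Without mouse N_4609, Atp5a1 and Atp5b were called.

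In striatum 0 of 91 members had a genotype effect that differed between models, in heterozygous (0.00673% of all genes) or homozygous mice (0.0202% of all genes), with 13 and 1 at an unadjusted p under 0.05 and 0 by DESeq2. The likelihood ratio test called Cox6c and Cox8b in heterozygous striatum (6.11% of all genes), at 0.50 and -1.63. In substantia nigra 0 of 91 were called in either genotype (0% of all genes in each), with 14 and 0 at an unadjusted p under 0.05 and 0 by DESeq2. There the likelihood ratio test called 5 in heterozygous mice (4.56% of all genes), Atp5e, Atp5j2, Cox6c, Cox8b and Ndufa3, between 0.45 and 2.41. Cox8b was far above the rest of its group in 1 heterozygous library in each region, named below. Without mouse N_4609 the quasi-likelihood test called 0 members in each of these 4.

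Alternative forms of complex IV subunits were followed over all 18 groups. Cox6a2 was lowest in substantia nigra in every genotype and model, with group medians of 0.70 to 1.5 cpm, against 2.99 to 4.15 cpm in striatum and 1.99 to 3.79 cpm in prefrontal cortex. Striatum was not above prefrontal cortex in every set of groups. Per kilobase, it made up a median of 0.886%, 1.12% and 0.240% of the Cox6a1 and Cox6a2 pair in wild-type Nestin-Cre prefrontal cortex, striatum and substantia nigra, and 1.04%, 0.983% and 0.522% in AAV-Cre mice. Cox7a1 was highest in substantia nigra of every group, with group medians of 2.84 to 4.10 cpm in Nestin-Cre and 2.23 to 2.63 cpm in AAV-Cre mice. In striatum and prefrontal cortex its group medians were 0.741 to 1.27 cpm. It made up 1.58%, 0.872% and 3.31% of the Cox7a1 and Cox7a2 pair in wild-type Nestin-Cre mice and 1.66%, 2.06% and 3.68% in AAV-Cre mice, in the same order of regions. As shares of a pair, the nigral values of both models lay close together, although the Cox7a1 level itself differed.

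**Figure D3:**
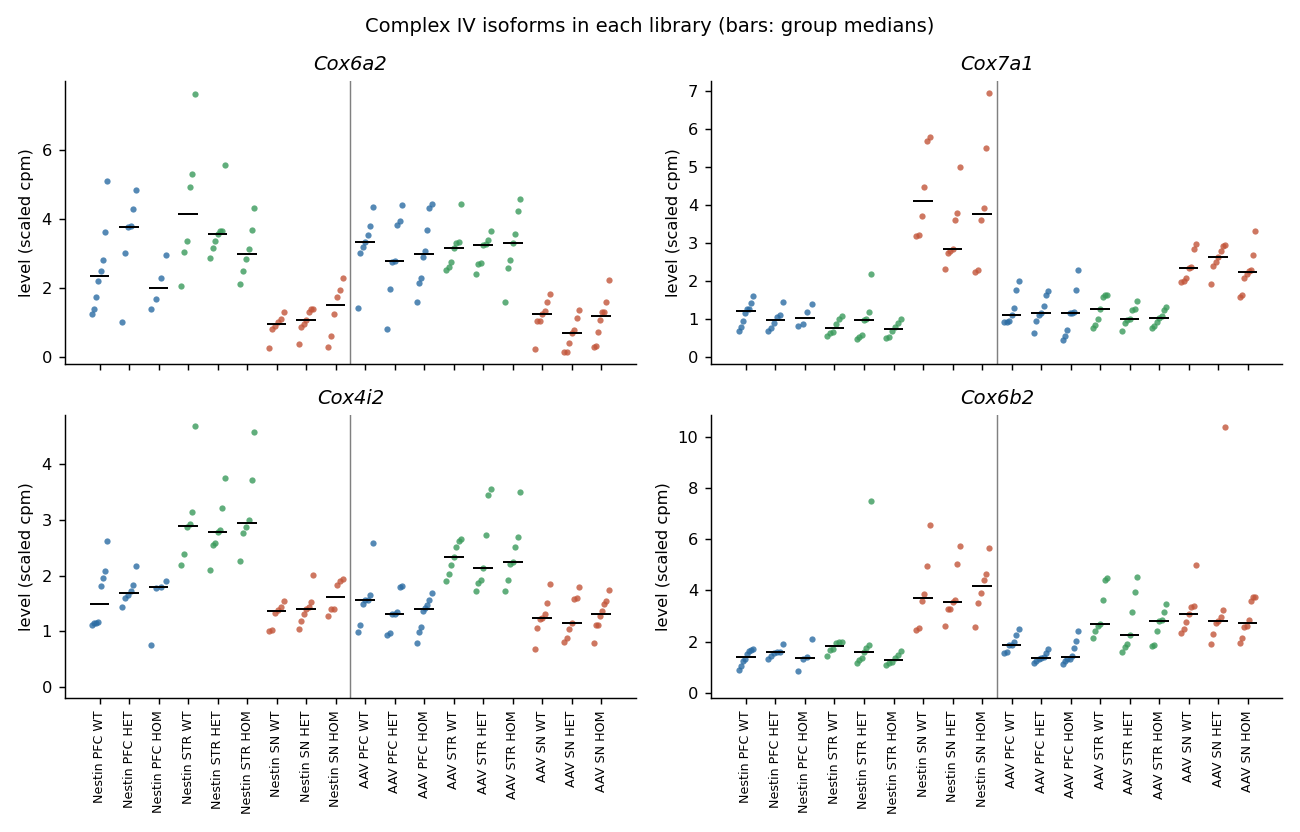
Levels of Cox6a2, Cox7a1, Cox4i2 and Cox6b2 (scaled cpm, vertical axis) in every library of the 18 groups (horizontal axis), coloured by region, with a black line at the group median. Group medians of Cox6a2 are 0.70 to 1.5 cpm in substantia nigra, below those of the other regions.

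Cox4i2 had group medians of 2.13 to 2.94 cpm in striatum, 1.31 to 1.79 cpm in prefrontal cortex and 1.15 to 1.62 cpm in substantia nigra. The medians of prefrontal and nigral groups thus overlapped, and those of striatum stood above both. Its share of the Cox4i1 and Cox4i2 pair was at most 0.517% as a wild-type median, in AAV-Cre striatum. Among the c-ring genes, Atp5g1 made up 21.4%, 18.5% and 16.4% of the Atp5g1 and Atp5g3 pair in wild-type Nestin-Cre prefrontal cortex, striatum and substantia nigra, and 24.9%, 17.3% and 17.5% in AAV-Cre mice. Atp5g2 made up 6.91%, 5.57% and 5.13% of its pair with Atp5g3 in Nestin-Cre mice and 8.85%, 5.89% and 4.64% in AAV-Cre mice. In wild-type mice of both models prefrontal cortex thus had the largest median share of Atp5g1 and of Atp5g2. Because reads of a pair come from the same library, these shares do not depend on the scaling.

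Cox8b, a heart and muscle form of subunit 8 (Entrez 12869), was mostly near 0, with a median of 0.234 cpm, and reached 1 cpm in 9 libraries. The 6 libraries with the highest summed level of 6 choroid plexus genes were all among the 9. They were a heterozygous AAV-Cre nigra (mouse A_3676, 20066 cpm, with Cox8b at 6.18 cpm), a heterozygous Nestin-Cre striatum (mouse N_4566, 18846 cpm, with 4.80 cpm) and 4 AAV-Cre striata (mice A_3585, A_3610, A_3690 and A_3588, 5638 to 8189 cpm, with 1.33 to 2.77 cpm). Ttr, the most abundant of the 6 genes, made up most of each sum, at 18999 cpm in the first, and Ttr, Folr1 and Aqp1 were at 0 in at least 1 other library. Cox6b2 was also high in them, at 10.4 and 7.47 cpm in the first and the second and at 3.48 to 4.50 cpm in the others. Cox7a1 was at 2.93 and 2.18 cpm in the first and the second and at 1.08 to 1.63 cpm in the others, of which the wild-type ones (mice A_3585 and A_3588) were at the top of their group. Choroid plexus genes were called higher in AAV-Cre striatum than in Nestin-Cre striatum (6 of 6, median 3.10) and higher in striatum than in prefrontal cortex of AAV-Cre mice (6 of 6, median 3.81). The part of this tissue in the values of Cox8b, Cox6b2 and Cox7a1 was not tested.

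Over the 18 group means, the median Pearson correlation over 4095 pairs of members was 0.777, against 0.341 for pairs of 720 other genes under 1000 bases and 0.00 for pairs of 14186 other genes. Over the 9 Nestin-Cre groups the medians were 0.86, 0.451 and 0.00, and over the 9 AAV-Cre groups 0.173, 0.0475 and 0.00. These are descriptions across groups that share mice and composition, and the part of the length index was not tested. Over all 18, 51 members had r over 0.9 with the median profile. The 3 least like it were Ndufa4l2 (r = -0.636), Cox6a2 (-0.331) and Atp5d (-0.0635). Ndufa4l2, an Ndufa4 relative known from hypoxia, varied little between groups, with group medians of 1.59 to 2.46 cpm. Sdha (0.436) and Ndufs3 (0.442) were also among the least alike, and the other members that most resembled them were Cox7a1 (0.875) and Ndufaf3 (0.952).

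Other genes of the same pathways are given as counts of wild-type calls, to be read beside the 65.6% to 78.8% of all genes called between regions and the 60.5% between models in substantia nigra. Of 38 further assembly factors, 11 rose and 8 fell from prefrontal cortex to striatum and 15 and 11 to substantia nigra in AAV-Cre mice, and 21 and 4, and 18 and 5, in Nestin-Cre mice. Of 19 enzymes that feed the chain (citric acid cycle and pyruvate entry), 10 rose and 2 fell from prefrontal cortex to substantia nigra in AAV-Cre mice, and 14 and 1 in Nestin-Cre mice. From striatum to substantia nigra 15 of them rose and 0 fell in AAV-Cre mice and 14 and 0 in Nestin-Cre mice. Of 15 glycolytic enzymes, 0 rose and 12 fell from prefrontal cortex to striatum in AAV-Cre mice (65.6% of all genes called), and 1 rose and 9 fell in Nestin-Cre mice (68.1%). Of 13 regulators of mitochondrial biogenesis, 4 rose and 5 fell from prefrontal cortex to substantia nigra in AAV-Cre mice, and 3 and 7 in Nestin-Cre mice. Cytochrome c, cytochrome c1 and the other 2 listed respiratory genes gave 1 up and 1 down, and 3 up and 0 down. Between models in substantia nigra, lower in AAV-Cre mice were 26 of 38 assembly factors (2 higher), 18 of 19 feeding enzymes, 8 of 15 glycolytic enzymes (4 higher), 4 of 13 biogenesis regulators (5 higher) and 4 of 4 other respiratory genes. These counts are from fits without the length index. With it as a covariate, 0.258% of all genes were called between models in substantia nigra. In Nestin-Cre mice 40.2% were called from prefrontal cortex to substantia nigra, 38.6% to striatum and 72.3% from striatum to substantia nigra. In AAV-Cre mice the same shares were 73.8%, 65% and 76.2%.

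The promoters of the members were searched for short motifs (both strands, RefSeq windows of 300 bases from 250 before to 50 after the annotated start, build GRCm38.p6). Of the 91 members, 76 had a window. GCGCANGCG, the core of the site of NRF1, a regulator of nuclear respiratory genes, was in 22 of 76 (28.9%), against 7.03% of all 27025 genes with a window. CCGGAAG, the core of ETS family sites such as that of GABP, was in 18 (23.7% against 9.93%), and AAGATGGCG, the core of YY1 sites, was in 8 (10.5% against 1.64%). CCAAT was in 34 (44.7% against 41.1%) and TATAAA in 7 (9.21% against 15.7%). The members had passed a filter on level and the 27025 genes had not, so these shares are not matched for expression. A match is a description of letters and shows no binding.

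Shown are windows of 3 members whose region differences stood out: Sdha, higher in substantia nigra of both models, Ndufs3, lower there than in striatum of both, and Cox7a1, the largest nigral rise. Capitals mark motif matches on either strand. Sdha (chr13:74350191-74350490, minus strand) held 3 matches to GCGCANGCG and 1 to CCAAT, Ndufs3 (chr2:90904672-90904971, minus strand) held CCGGAAG on each strand, and Cox7a1 (chr7:30183921-30184220, plus strand) held only CCAAT among the motifs searched.
Sdha: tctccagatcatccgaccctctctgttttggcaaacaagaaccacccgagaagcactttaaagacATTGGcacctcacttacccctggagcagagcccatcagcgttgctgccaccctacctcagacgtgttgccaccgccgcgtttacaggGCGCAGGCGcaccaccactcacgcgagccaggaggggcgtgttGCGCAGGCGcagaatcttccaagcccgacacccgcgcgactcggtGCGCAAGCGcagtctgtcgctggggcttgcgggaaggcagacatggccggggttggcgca
Ndufs3: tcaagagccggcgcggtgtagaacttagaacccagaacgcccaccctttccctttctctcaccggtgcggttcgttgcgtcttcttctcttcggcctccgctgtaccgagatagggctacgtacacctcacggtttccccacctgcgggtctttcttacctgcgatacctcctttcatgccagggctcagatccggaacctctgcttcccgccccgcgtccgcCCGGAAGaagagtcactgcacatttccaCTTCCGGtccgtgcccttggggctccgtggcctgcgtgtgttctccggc
Cox7a1: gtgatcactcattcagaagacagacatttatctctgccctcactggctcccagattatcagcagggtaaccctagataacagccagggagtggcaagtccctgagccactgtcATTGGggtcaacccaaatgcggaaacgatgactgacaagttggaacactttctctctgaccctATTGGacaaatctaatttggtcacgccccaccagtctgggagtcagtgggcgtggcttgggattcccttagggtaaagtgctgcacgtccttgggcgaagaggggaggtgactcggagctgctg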

How the data were processed

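RNA was counted per gene in 121 libraries. The deposited table holds raw read counts that the authors made with STAR 2.5.2b and featureCounts 1.5.1 on build mm10 after bcl2fastq 2.20.0.422, by the submitters' processing notes; the strand setting of the counting is not stated. A gene entered a fit when 3 or more of its libraries reached 1 cpm; counts were scaled by TMM and tested with the quasi-likelihood F test of edgeR 4.0.16 (trended dispersion, R 4.3.3, two-sided), with Benjamini-Hochberg adjusted p over all genes and calls at adjusted p under 0.1. Fits covered the 3 genotypes of each model and region, the wild-type libraries of each model over regions, all libraries of a region over both models, and wild-type libraries of both models over regions. Levels are cpm after TMM, and the indices use a pseudocount of 0.5 cpm.

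The members, marker lists and pathway lists were chosen with earlier results of these data known. Named were listed core subunits and alternative forms, the 3 largest called rises and falls of each region or model comparison, the called or lowest-p member of each genotype comparison, and the 3 members least like the median profile. Alternatives were DESeq2 1.42.0, its size factors, total counts, no filter, a likelihood ratio test, a threshold of 0.05, a replicate block, other fit sets, left-out mice and the length index. The pairing comes from the mouse numbers in the sample names and was checked: libraries with 1 number in different regions correlated more (medians 0.19 to 0.29 after removing group means) than others (-0.05 to -0.01).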

Additional observations from a re-analysis of the deposited data

Results flagged for a closer look

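Single libraries far from the others of their group were looked for in 10 measures over 180 sets of libraries, of which chance marks about 1 in 20; 18 were found. The member index of wild-type Nestin-Cre mice stood apart in prefrontal cortex of mouse N_4326 (6.01) and in striatum of mouse N_4609 (5.98). The length index stood apart in the same striatum of mouse N_4609 (-2.54) and in prefrontal cortex of heterozygous AAV-Cre mouse A_3586 (-2.56). Cox8b was far above its group in heterozygous AAV-Cre nigra of mouse A_3676 (6.18 cpm, next 0.420 cpm), in heterozygous Nestin-Cre striatum of mouse N_4566 (4.80 cpm, next 0.248 cpm) and in homozygous Nestin-Cre prefrontal cortex of mouse N_4393 (0.281 cpm). Cox6b2 was high in the same libraries of mouse A_3676 (10.4 cpm) and mouse N_4566 (7.47 cpm) and in wild-type AAV-Cre nigra of mouse A_3578 (5.00 cpm). Cox7a1 was high in the striatum of mouse N_4566 (2.18 cpm). Cox6a2 was high in wild-type AAV-Cre striatum of mouse A_3578 (4.45 cpm) and in heterozygous Nestin-Cre striatum of mouse N_4577 (5.56 cpm). Cox4i2 was high in wild-type AAV-Cre prefrontal cortex of mouse A_3585 (2.59 cpm) and low in homozygous Nestin-Cre prefrontal cortex of mouse N_4393 (0.748 cpm). Cox7b2 was at 0 cpm in heterozygous AAV-Cre prefrontal cortex of mouse A_3577. Ndufa4l2 was low in heterozygous AAV-Cre prefrontal cortex of mouse A_3676 (1.23 cpm) and in homozygous Nestin-Cre nigra of mouse N_4568 (1.27 cpm).

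Effects that differed between the models by a direct test were the region steps of 59 members (prefrontal cortex to striatum), 71 (prefrontal cortex to substantia nigra) and 38 (striatum to substantia nigra), where 29.4%, 45% and 34% of all genes differed. With the length index as a covariate 1, 1 and 7 members were called, of which 0, 0 and 3 had been called in the same direction without it. In prefrontal cortex the heterozygous effect differed for Uqcrfs1 by 0.28 and for Cox5a by 0.39, and the homozygous effect for Atp5b by 0.20, for Atp5a1 by 0.21 and for Cox7b2 by 2.02 on the log2 scale. Of all genes, 0.678% and 3.54% were called for these effects. The first 2 calls were lost without mouse N_4609, and the other 3 without mouse N_4568 or without mouse N_4569. The call of Cox7b2 was also lost without mouse N_4609, without mouse N_4575, with DESeq2 and without the filter on low counts. The calls of Atp5b and Atp5a1 were also lost with total counts and with the likelihood ratio test.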

How the results depend on the processing

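Of 299 alternative counts for 30 counts of called members, 273 stayed within 1.5 times the reported count. The reported count was 0 in 16 of the 30, where 145 of 152 alternatives stayed at 0, and over 0 in 14, where 128 of 147 stayed within that range. Of 777 values for 76 differences (the largest ones, the called ones between genotypes and those of lowest p), 720 kept direction and side of the threshold, 55 lost their call, 1 gained it and 1 changed sign. The 76 do not cover every member described in the report. The alternatives with the length index, without mouse N_4609 and those added for the tests between models were chosen after seeing the data; all alternatives listed beforehand were run. With the length index as a covariate, the members called were 10 and 23 in Nestin-Cre mice from prefrontal cortex to substantia nigra and to striatum, 0 and 11 between models in substantia nigra and striatum, 1, 1 and 7 for region steps that differ between models (to substantia nigra, to striatum, and striatum to substantia nigra), and 4 for the heterozygous effect between models in prefrontal cortex (Atp5f1 and Atp5g3 added). The homozygous effect between models in prefrontal cortex also had 4 members called with it (Uqcrfs1 added), and no genotype comparison within a model had any. Among the 76, Ndufaf8 changed sign with the covariate, to 0.0618 for the difference between models from prefrontal cortex to substantia nigra. Over all called members, the sign under the covariate was the other one for 45 of 83 and 45 of 79 in these Nestin-Cre comparisons (4 and 9 of them called), for 5 of 57 from striatum to substantia nigra, and for 26 and 17 of 84 between models in substantia nigra and striatum. For region steps that differ between models it was so for 35 of 71, 28 of 59 and 5 of 38, and for 0 in AAV-Cre mice; the cause was not tested.

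With the likelihood ratio test the counts were 1 in homozygous AAV-Cre prefrontal cortex, 1 in heterozygous Nestin-Cre nigra, 7 and 1 in heterozygous and homozygous Nestin-Cre striatum, 5 and 2 for the heterozygous effect between models in nigra and striatum, and 1 for each effect in prefrontal cortex (Cox5a, Cox7b2). With DESeq2 they were 6 in homozygous AAV-Cre prefrontal cortex and 4 for the heterozygous effect between models there. At adjusted p under 0.05 both effects in prefrontal cortex had 0, and with total counts they had 0 and 1. The heterozygous one also had 0 without the filter and 0 without mouse N_4609. Leaving out each homozygous Nestin-Cre mouse in turn gave 0 to 3 for the homozygous effect between models in prefrontal cortex. The cause of these changes was not tested. The replicate block by mouse was run for the 9 counts of region differences and changed none of them by more than 1.5 times. Members under 1 cpm rest on few reads, and the homozygous Nestin-Cre prefrontal group has 4 mice. Age, Cre source and injection differ between models, and whole tissue mixes cell types.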
